A study of Rattus norvegicus with 20 samples.

Results

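The 9 genes Pcp2, Car8, Itpr1, Plcb4, Pcp4, Rora, Lhx1, Lhx5 and Foxp2, all used as genes of cerebellar Purkinje cells, were followed across 20 rat brain arrays. Every probe set annotated to 1 of these symbols and to no other gene was taken. That gave 12 probe sets of 31042 on the array, for 9 of 14217 named genes, with Plcb4, Rora and Lhx5 each represented by a pair of probe sets. Of the 12, 9 probe sets for 8 genes passed the filter on mean signal and were tested. The other 3, the dimmer Rora probe set (1380478_at) and both Lhx5 probe sets (1370466_at and 1386526_at), did not pass and are given by their values.

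Purkinje cells are the large inhibitory neurons whose axons are the only output of the cerebellar cortex. Glutamate from granule cell fibres acts on a metabotropic receptor in their dendrites, which drives phospholipase C beta (Plcb4) to make inositol trisphosphate. The inositol trisphosphate receptor (Itpr1) then releases calcium from the endoplasmic reticulum, and Car8, a carbonic anhydrase relative without enzyme activity, binds that receptor. Calmodulin, a calcium sensor, is bound by Pcp4, and Pcp2 binds G protein alpha subunits. Rora is a nuclear receptor without which Purkinje cells of the mouse fail to mature, Lhx1 and Lhx5 are homeodomain factors of their early differentiation in the mouse, and Foxp2 is a forkhead factor found in Purkinje cells and in deep-layer neurons of the cerebral cortex.

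Gene expression was measured on 1-colour Affymetrix arrays, 1 array per rat, in male rats of the Sprague Dawley strain aged 20 weeks, with body weights of 250 to 300 g. The 10 treated rats received isoflurane, an inhaled anaesthetic, at 2% in oxygen for 15 minutes, equal to 1.4 MAC, the unit in which such agents are dosed. The 10 controls breathed pure oxygen for the same time, and tissue labelled brain cortex was taken after 6 hours of recovery in both groups. Values are the authors' MAS5 signals, which summarise the probes of a probe set and are then scaled to a fixed trimmed mean per array. Levels below are their log2. Levels of different probe sets were not set against each other, and the number of arrays limits the precision.

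The tissue label did not hold for all arrays. On 11 arrays Pcp2 exceeded 4096 on the linear scale (12 on the log2 scale), and these are called cerebellum-like. They comprised isoflurane replicates 1, 3, 7, 8 and 9 and oxygen replicates 5 to 10. The 9 cortex-like arrays were isoflurane replicates 2, 4, 5, 6 and 10 and oxygen replicates 1 to 4. The lowest Pcp2 level above the cut was 13.60, on oxygen replicate 7, and the highest below it was 10.67, on isoflurane replicate 10. Parting the arrays by Gabra6, Cbln1, En2 and Fat2, genes of cerebellar granule cells, put 20 of 20 arrays in the same sets. Of 11 granule cell markers the summed linear signal ran from 58284 to 74520 on cerebellum-like arrays and from 6966 to 11844 on cortex-like arrays. For 10 markers of cortical projection neurons it ran from 4049 to 11162 on cerebellum-like arrays and from 22169 to 34963 on cortex-like arrays. Fezf2, a defining factor of deep-layer cortical neurons, lay between 1.31 and 6.96 on cerebellum-like arrays and between 8.69 and 9.43 on cortex-like arrays. Of the 10 cortical markers, 6 were lower on every cerebellum-like array than on any cortex-like array and 4 overlapped (Tbr1, Neurod6, Neurod2 and Slc17a7). Neurod2 had the higher median on cerebellum-like arrays, 9.94 against 9.20 on cortex-like arrays. Since the sets were parted by the signal of a member, differences between them are given with no test. Fits of Pcp2 itself, within or across the sets, use the signal that parted them, so their p-values are given as a description.

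Across the sets, 7 of the 12 probe sets were higher on every cerebellum-like array than on any cortex-like array, 1 was lower on every one, and 4 overlapped. Among all 31042 probe sets, 6.19% were higher and 6.49% lower without overlap. Among the 18625 tested ones the shares were 9.47% and 9.34%, and 5 and 1 of the 9 tested members fell there. The genes were chosen as genes of the cerebellum, so nothing is read from these counts. In bulk tissue, fewer cells of a type and less RNA per cell cannot be told apart.

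**Figure D1:**
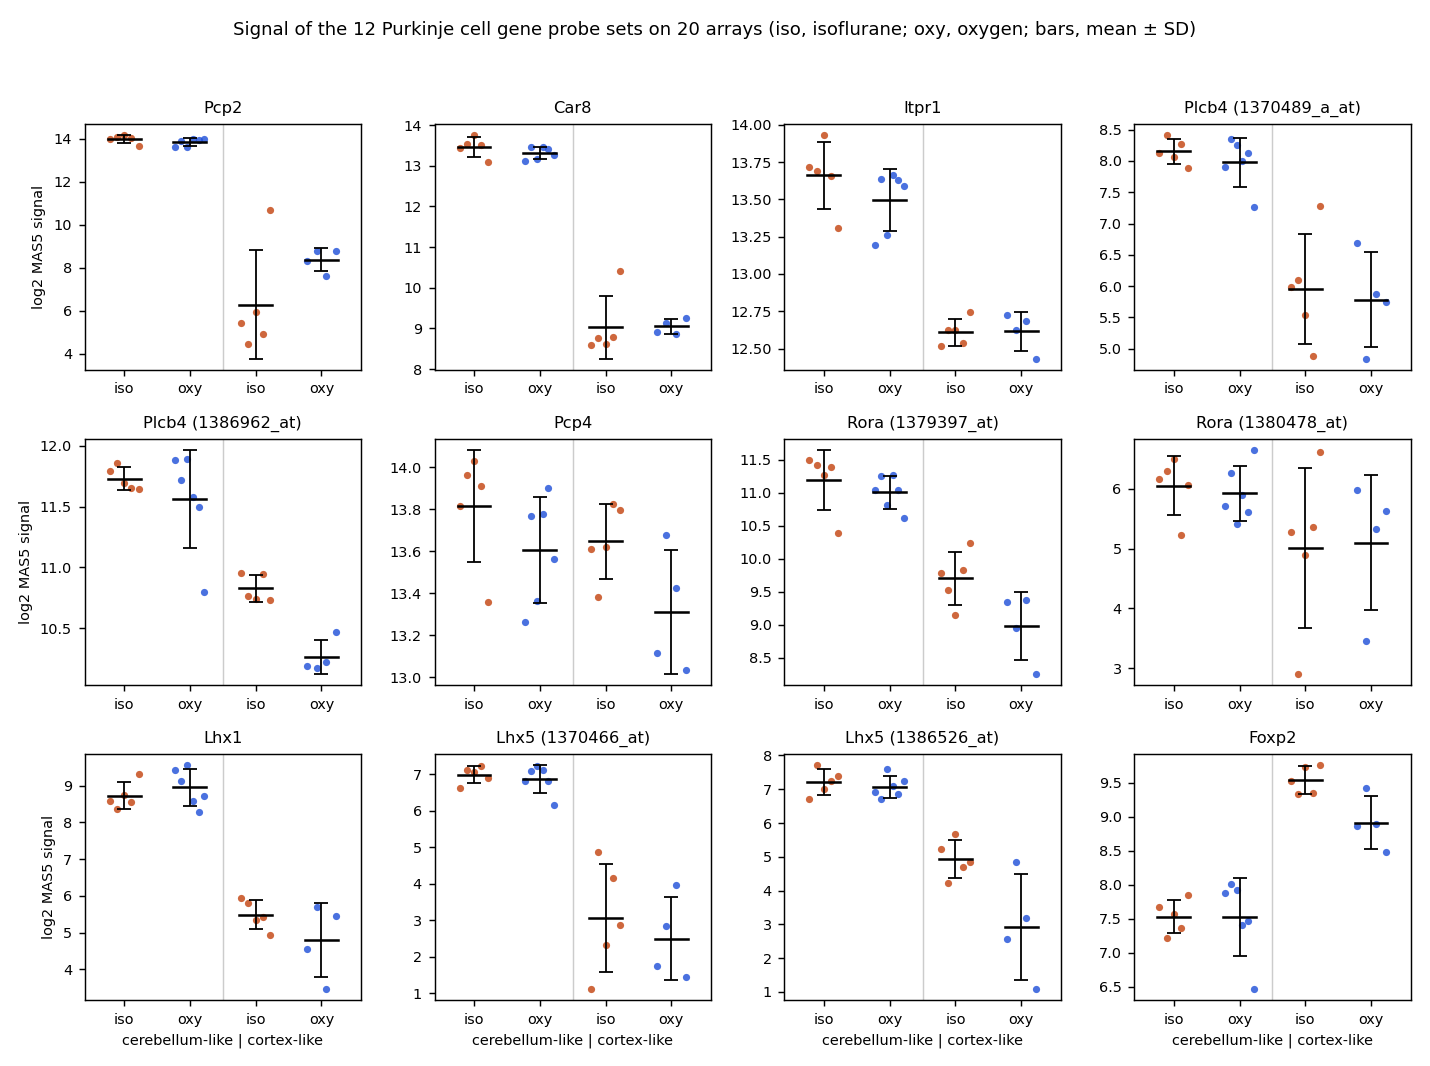
Log2 MAS5 signal (y axis, own scale per panel) of each of the 12 probe sets on isoflurane (iso, orange) and oxygen (oxy, blue) arrays, cerebellum-like arrays left of the grey line and cortex-like arrays right of it. Points are arrays and bars the mean and SD of 4 to 6 arrays; Pcp2, Car8, Lhx1 and Lhx5 part the sets by more than 1 log2 unit, Pcp4 does not, and Foxp2 lies lower on the cerebellum-like arrays.

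Pcp2 had levels from 13.60 to 14.17 (median 13.96) on the 11 cerebellum-like arrays, against 4.46 to 10.67 (median 7.63) on the 9 cortex-like arrays. Its medians differed by 6.33, but its own signal parted the arrays, so that this difference follows from the rule. Car8 ran from 13.09 to 13.76 (median 13.43) on cerebellum-like arrays and from 8.60 to 10.41 (median 8.86) on cortex-like arrays, a difference of 4.57 or 23.8-fold that ranked 25 from the top among the 18625 tested probe sets. The lowest cerebellum-like array for Car8 stood more than 2 log2 units above the highest cortex-like one.

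The signalling genes that act beside Car8 were less uneven. Itpr1 lay between 13.20 and 13.93 (median 13.64) on cerebellum-like arrays and between 12.43 and 12.74 (median 12.62) on cortex-like arrays, a 2.02-fold difference with a gap of 0.45 between the sets. The brighter Plcb4 probe set (1386962_at) ran from 10.80 to 11.89 (median 11.70) on cerebellum-like arrays and from 10.17 to 10.95 (median 10.73) on cortex-like arrays. The dimmer one (1370489_a_at) ran from 7.26 to 8.42 (median 8.12) and from 4.84 to 7.27 (median 5.87) in the same order of sets. The Plcb4 medians differed 1.95-fold by the brighter probe set and 4.76-fold by the dimmer one, and by both the sets overlapped at 1 end.

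Pcp4, the calmodulin-binding protein, did not part the tissues. Its level was 13.26 to 14.03 (median 13.78) on cerebellum-like arrays and 13.03 to 13.83 (median 13.61) on cortex-like arrays, a 1.12-fold difference. Deep-layer neurons of the cerebral cortex are known to make it as well.

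Among the transcription factors, Lhx1 ran from 8.29 to 9.56 (median 8.71) on cerebellum-like arrays and from 3.47 to 5.94 (median 5.42) on cortex-like arrays. Its relative Lhx5 was dim. By 1370466_at it had 6.17 to 7.22 (median 7.06) on cerebellum-like arrays and 1.13 to 4.88 (median 2.85) on cortex-like arrays, and by 1386526_at 6.70 to 7.71 (median 7.08) and 1.09 to 5.68 (median 4.69). Cortex-like levels this low lie where MAS5 signal cannot be told from background here, and the folds of 9.83 between the Lhx1 medians and of 18.6 and 5.25 between the Lhx5 medians rest on them.

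Rora by its brighter probe set (1379397_at) ran from 10.39 to 11.49 (median 11.25) on cerebellum-like arrays and from 8.26 to 10.24 (median 9.37) on cortex-like arrays, 3.68-fold apart in the medians but only 0.15 apart at the nearest arrays. The dimmer Rora probe set ran from 5.22 to 6.65 on cerebellum-like arrays and from 2.91 to 6.62 on cortex-like arrays and overlapped. Foxp2 went the other way, with 6.47 to 8.01 (median 7.57) on cerebellum-like arrays and 8.48 to 9.76 (median 9.35) on cortex-like arrays. Its median on cerebellum-like arrays was 0.291 times that on cortex-like arrays, and no array of the first set reached the second.

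RefSeq promoter sequences on GRCr8, from 250 bases before to 50 bases after the start of the gene, were given for 6 of the 9 genes (Pcp2, Itpr1, Plcb4, Pcp4, Rora and Lhx1). They were searched on both strands for the core element that ROR receptors bind, spelled AGGTCA. Because the members also include other kinds of transcription factor, a forkhead motif spelled TGTTTAC and a homeodomain motif spelled TAATTA were searched in the same way. The TATA element, which can fix the start of transcription, was searched as TATAA. No match overlaps another in the windows shown. The 3 windows with a match are shown, since the members include a ROR receptor and a forkhead factor. The matching letters are in capitals.
Pcp2, chr12:6481258-6481557, minus strand: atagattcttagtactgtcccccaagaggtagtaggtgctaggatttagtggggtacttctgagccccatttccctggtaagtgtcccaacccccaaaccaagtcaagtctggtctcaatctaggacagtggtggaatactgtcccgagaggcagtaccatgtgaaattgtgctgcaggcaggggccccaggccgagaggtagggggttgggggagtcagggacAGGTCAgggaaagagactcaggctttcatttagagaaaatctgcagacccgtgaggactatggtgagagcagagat
Itpr1, chr4:142743190-142743489, plus strand: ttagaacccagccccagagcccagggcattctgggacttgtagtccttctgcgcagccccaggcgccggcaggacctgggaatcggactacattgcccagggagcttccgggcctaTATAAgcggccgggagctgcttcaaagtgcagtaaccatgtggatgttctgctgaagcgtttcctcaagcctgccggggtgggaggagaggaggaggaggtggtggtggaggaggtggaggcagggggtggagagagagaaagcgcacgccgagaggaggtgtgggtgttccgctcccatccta
Rora, chr8:78816005-78816304, plus strand: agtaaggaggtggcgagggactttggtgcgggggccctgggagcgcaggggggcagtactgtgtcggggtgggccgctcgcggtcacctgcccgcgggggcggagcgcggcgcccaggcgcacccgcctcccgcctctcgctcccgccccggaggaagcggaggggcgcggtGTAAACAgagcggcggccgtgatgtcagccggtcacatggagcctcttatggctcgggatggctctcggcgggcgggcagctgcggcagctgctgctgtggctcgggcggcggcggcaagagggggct
In Pcp2 the ROR element begins 26 bases before the start. In Itpr1 the letters of the TATA element begin 134 bases before the start, and a role in fixing that start is not read from them. In Rora the forkhead motif lies on the minus strand, so that it reads GTAAACA above, 78 bases before the start. Of 33469 rat promoters of the same length, 16.2% held the ROR element on either strand, 3.78% the forkhead motif, 5.36% the homeodomain motif and 26.2% the TATA element. The homeodomain motif was in 0 of the 6 members. The Pcp2 window had 52.7% G or C and 3 CG pairs, the Itpr1 window 62% and 13, and the Rora window 74.7% and 35. A match is a description of these letters, and binding was not measured.

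The share of the cerebellar signal seen on the cortex-like arrays differed between genes and arrays. As a share of the median linear signal of the cerebellum-like arrays, Pcp2 stood at 10.2% on isoflurane replicate 10, at 0.138% to 0.382% on isoflurane replicates 2, 4, 5 and 6, and at 1.24% to 2.75% on the 4 oxygen arrays. Gabra6 stood at 11.96% on isoflurane replicate 10, at 0.0563% to 0.201% on the other 4 isoflurane arrays and at 0.922% to 3.32% on the oxygen arrays. For both the Purkinje cell gene and the granule cell gene, isoflurane replicate 10 stood highest, the oxygen arrays next and the other isoflurane arrays lowest. On those other isoflurane arrays both genes lay under the filter of 6.62, near background. Cbln1 stood at 10.1%, En2 at 7.95%, Fat2 at 9.63% and Gdf10, a Bergmann glia gene, at 11.3% on isoflurane replicate 10. Car8 stood at 12.3% on that array, at 3.51% to 3.97% on the other isoflurane arrays and at 4.20% to 5.57% on the oxygen arrays. Lhx1 stood at 7.34% on isoflurane replicate 10 and at 2.64% to 14.6% over the 9 arrays. It lay under the filter on all 9, near background, so no order of arrays can be read from it. Itpr1 stood at 43.4% to 53.8% throughout. Slc1a6, another Purkinje cell gene, stood at 7.70% on isoflurane replicate 10. Its other isoflurane arrays (3.77% to 5.46%) overlapped the oxygen arrays (3.37% to 6.83%). The brighter Plcb4 probe set stood at 34.6% to 59.7%, Pcp4 at 59.7% to 104% and Foxp2 at 188% to 458%.

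**Figure D2:**
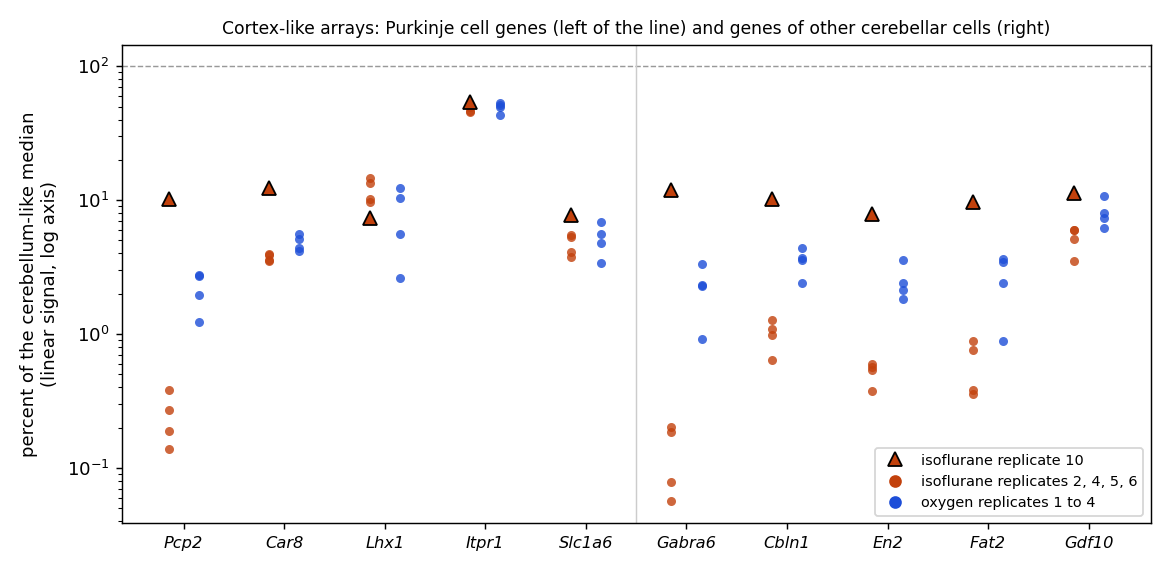
Linear signal on each of the 9 cortex-like arrays as a percent of the median of the 11 cerebellum-like arrays (log y axis; dashed line, 100%), for Purkinje cell genes (left of the grey line) and genes of other cerebellar cells (right). Each point is an array; isoflurane replicate 10 (triangle) stands near 10% for Pcp2, Car8, Gabra6, Cbln1, Fat2 and Gdf10, and the other isoflurane arrays lie below the oxygen arrays for Pcp2, Gabra6, Cbln1 and En2.

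Within the cerebellum-like set, 3 arrays had a lower ceiling than the rest. The highest linear signal was 20482 to 21770 on isoflurane replicate 9 and oxygen replicates 5 and 7, and 31077 to 40369 on the other 8. Pcp2 had 13.60 to 13.65 on these 3 arrays and 13.90 to 14.17 on the other 8. After quantile normalization, which gives all arrays the same distribution, the order was turned, and the 3 arrays had 14.10 to 14.22 where the other 8 had 13.87 to 14.05. Deposited Itpr1 levels were 13.20 to 13.31 on the 3 arrays, below the 13.59 to 13.93 of the 8. After quantile normalization they were 13.60 to 13.65 on the 3, inside the 13.60 to 13.73 of the 8. Car8 and Pcp4 also lay lower on the 3 arrays as deposited, without overlap, and overlapped after it. Lhx1 did not do this: it was higher on the 3 arrays as deposited (9.33 to 9.56, against 8.29 to 9.12 on the 8) and after quantile normalization (9.27 to 9.49, against 8.22 to 9.09).

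**Figure D3:**
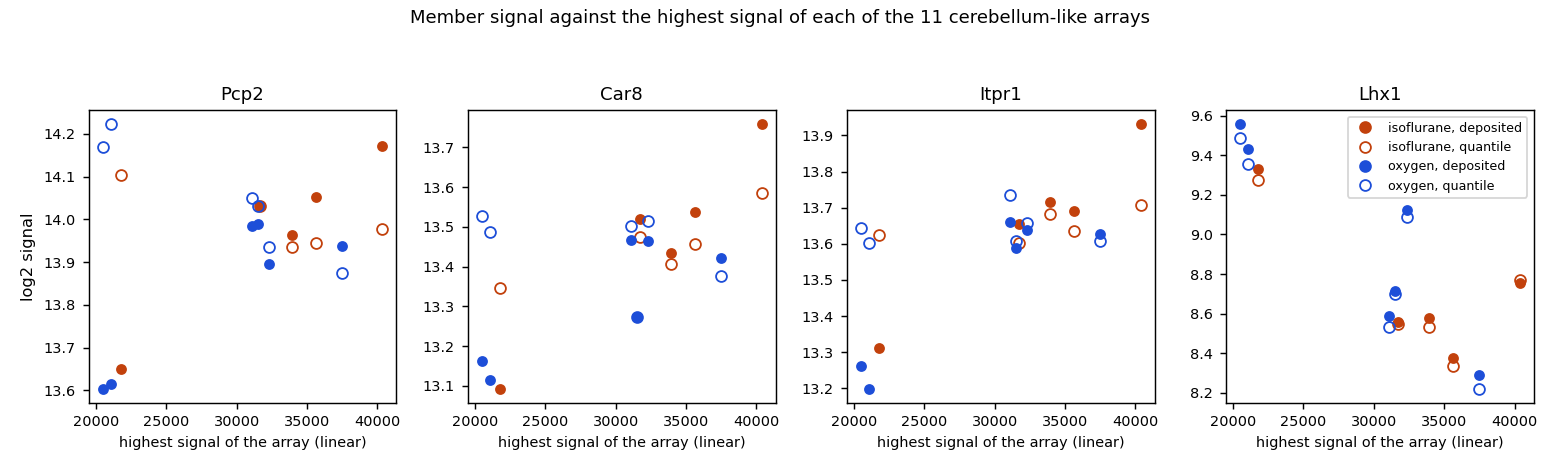
Log2 signal of Pcp2, Car8, Itpr1 and Lhx1 (y axis, own scale per panel) against the highest linear signal of each of the 11 cerebellum-like arrays (x axis), as deposited (filled) and after quantile normalization (open), isoflurane in orange and oxygen in blue. The 3 arrays with a highest signal of 21770 or less have the lowest deposited Pcp2, Car8 and Itpr1 and the highest Lhx1; only for Lhx1 does the order stay the same after quantile normalization.

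Whether isoflurane changed these genes was asked first on the cerebellum-like arrays. With limma, 0 of the 9 tested probe sets passed in either direction (Benjamini-Hochberg adjusted p under 0.05), as did 0 of all 18625 (0.0%). At an unadjusted p under 0.05 there were 0 of 9 members and 2376 of 18625 probe sets (12.8%). Adjusted p-values of the members ran from 0.510 to 0.990, and the isoflurane and oxygen arrays overlapped for 12 of 12 probe sets. The share of tested probe sets without overlap was 0.408% with isoflurane higher and 0.58% with isoflurane lower. The fitted change was positive for 8 of the 9, with a median of 0.16, against -0.0024 over all tested probe sets. After quantile normalization it was positive for 7 of the 9, with a median of 0.043, against 0.014 over all, and 5 of the 9 stood above that median of all. Pcp2 was then at -0.049, Car8 at 0.0067, Itpr1 at 0.0080 and Pcp4 at 0.056. On the same arrays as deposited, 0 of 9 tested markers of cortical projection neurons passed, and the fitted change was positive for 0 of the 9, with a median of -0.57. Over all genes it was positive for 5046 of 10315, with a median of -0.0057. Of these markers Fezf2, Emx1 and Bcl11b had means under the filter of 6.62 in both groups here, so their changes lie near background. The part of the cortical markers in the members' values was not tested.

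Pcp2 had 13.96, 14.05, 14.17, 14.03 and 13.65 on isoflurane replicates 1, 3, 7, 8 and 9, against 13.60 to 13.99 (median 13.92) on the 6 oxygen arrays. The lowest isoflurane array fell among the lowest oxygen arrays. The limma difference, isoflurane minus oxygen, was 0.14 (95% interval -0.10 to 0.37, adjusted p = 0.567), a fold between 0.935 and 1.29. Car8, which binds the calcium channel described next, had 13.43, 13.54, 13.76, 13.52 and 13.09 on the isoflurane arrays, against 13.12 to 13.47 (median 13.35) on the oxygen arrays. Its difference was 0.15 (-0.09 to 0.40, limma adjusted p = 0.546). The groups overlapped, with the lowest Car8 level of all on isoflurane replicate 9.

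Itpr1, the calcium channel of the endoplasmic reticulum, had 13.71, 13.69, 13.93, 13.65 and 13.31 on the isoflurane arrays and 13.20 to 13.66 (median 13.61) on the oxygen arrays. The difference was 0.16 (-0.10 to 0.42, limma adjusted p = 0.541). Upstream of it, Plcb4 by its brighter probe set had 11.79, 11.86, 11.70, 11.65 and 11.64 on the isoflurane arrays and 10.80 to 11.89 (median 11.65) on the oxygen arrays. The isoflurane values lay inside the oxygen range, with a difference of 0.17 (-0.18 to 0.52, limma adjusted p = 0.642). The dimmer Plcb4 probe set gave the same 0.17 (-0.22 to 0.57). Pcp4 had 13.81, 13.96, 14.03, 13.91 and 13.36 on the isoflurane arrays and 13.26 to 13.90 (median 13.67) on the oxygen arrays, and its difference of 0.21 (-0.09 to 0.51, limma adjusted p = 0.510) was the largest positive one among the 9.

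Of the transcription factors, Rora by its brighter probe set had 11.49, 11.41, 11.27, 11.39 and 10.39 on the isoflurane arrays, against 10.62 to 11.27 (median 11.04) on the oxygen arrays. Isoflurane replicate 9 was the lowest of all 11 arrays, while the other 4 isoflurane arrays lay at or above the top of the oxygen range. The limma difference was 0.18 (-0.22 to 0.59, adjusted p = 0.655), and 0.38 (adjusted p = 0.0769) without isoflurane replicate 9. Lhx1 had 8.58, 8.38, 8.76, 8.56 and 9.33 on the isoflurane arrays and 8.29 to 9.56 (median 8.92) on the oxygen arrays, a difference of -0.23 (-0.74 to 0.27, adjusted p = 0.656). Foxp2 had 7.67, 7.21, 7.57, 7.37 and 7.84 on the isoflurane arrays and 6.47 to 8.01 (median 7.67) on the oxygen arrays, a difference of 0.01 (-0.53 to 0.55). The Foxp2 interval is wide enough to hold a change of 0.5 log2 units in both directions. Those of Lhx1, Rora, Pcp4 and both Plcb4 probe sets hold it in 1 direction.

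The probe sets under the filter were read from a fit without it. Lhx5 differed by 0.12 and 0.14 and the dimmer Rora probe set by 0.13, with limma adjusted p-values from 0.830 to 0.897. Leaving out isoflurane replicate 9 gave 1086 calls among the 18625 probe sets, and leaving out all 3 arrays of low ceiling gave 405. None of the 9 members was called in either fit. Over the settings tried, the lowest adjusted p of a member on these arrays was the 0.0769 of Rora.

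**Figure D4:**
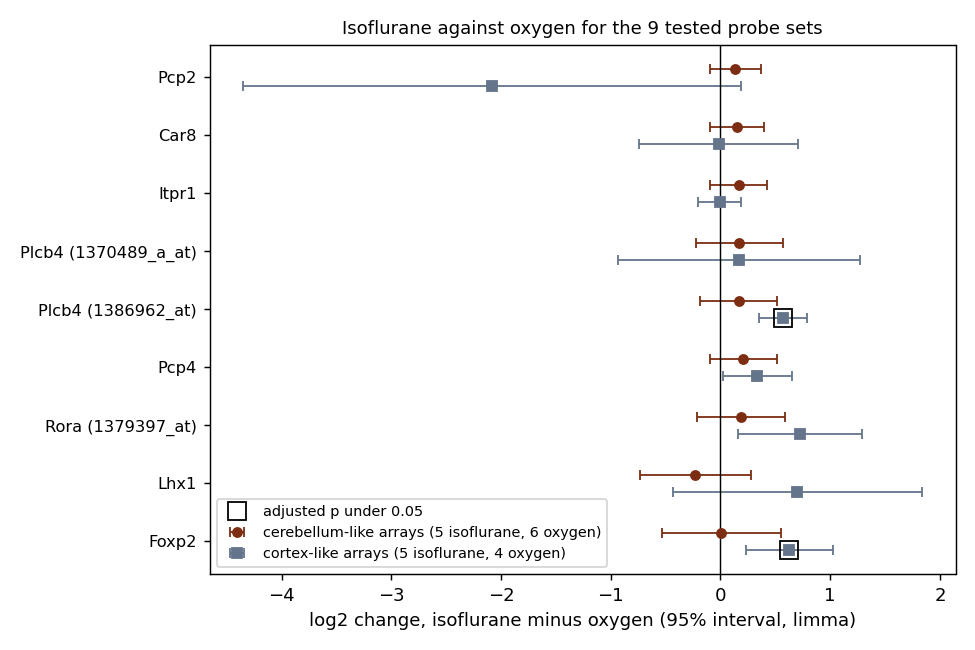
Limma log2 change, isoflurane minus oxygen (x axis, with 95% intervals), for the 9 tested probe sets on cerebellum-like arrays (circles; 5 isoflurane, 6 oxygen) and on cortex-like arrays (squares; 5 isoflurane, 4 oxygen). Every interval on cerebellum-like arrays holds 0, and boxes mark the adjusted p under 0.05 of Plcb4 (1386962_at) and Foxp2 on cortex-like arrays; Lhx1 and Plcb4 (1370489_a_at) lie near background on those arrays.

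On the cortex-like arrays 2 of the 9 tested probe sets were higher with isoflurane and 0 were lower. Of all tested probe sets 11.2% were higher and 7.42% lower there (18.6% in all), so the members' count lies near the background. Plcb4 by its brighter probe set had 10.95, 10.77, 10.74, 10.95 and 10.73 on isoflurane replicates 2, 4, 5, 6 and 10 and 10.19, 10.17, 10.22 and 10.47 on oxygen replicates 1 to 4. Every isoflurane array lay above every oxygen array, as for 6.7% of tested probe sets, and no member lay the other way without overlap, as 6.52% did. Plcb4 rose by 0.57 (SE 0.10, 95% interval 0.35 to 0.78, limma adjusted p = 0.00861), a 1.48-fold change, and by 0.53 to 0.63 with each array left out in turn. The dimmer Plcb4 probe set was at 0.17 (interval -0.94 to 1.27). Its mean on the cortex-like arrays was 5.88, under the filter of 6.62, so that it was tested through its level on cerebellum-like arrays and its cortex-like values lie near background.

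Foxp2 had 9.53, 9.33, 9.74, 9.35 and 9.76 on the cortex-like isoflurane arrays and 8.86, 9.42, 8.90 and 8.48 on the oxygen arrays, with oxygen replicate 2 inside the isoflurane range. It was higher by 0.63 (SE 0.18, interval 0.23 to 1.02, limma adjusted p = 0.0343). That call was lost without any 1 of oxygen replicates 1, 3 and 4 or isoflurane replicates 2, 4, 5 and 6, with differences from 0.48 to 0.68 and adjusted p-values from 0.0537 to 0.0898. Isoflurane replicates 2, 4, 5 and 6 stood apart on the 3'/5' signal ratio of control transcripts, a sign of RNA quality, with log2 ratios of 1.28 to 1.59 against 0.75 to 1.23 on the other 5 cortex-like arrays. With that ratio as a covariate Plcb4 passed at 0.54 (adjusted p = 0.0352) and Foxp2 did not (0.63, adjusted p = 0.0933), in a fit that called 5.97% of tested probe sets. Without those 4 arrays neither Plcb4 (0.47) nor Foxp2 (0.85) was called (adjusted p = 0.902 for each), and 0 of the 18625 probe sets were. That fit leaves 1 isoflurane array, whose spread is taken to be that of the oxygen arrays. With arrays centred on their medians the median of all tested probe sets moved to -0.21, Plcb4 was at 0.36 (adjusted p = 0.05003) and Foxp2 at 0.42 (adjusted p = 0.117). Relative to that median they stood at 0.57 and 0.63.

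Pcp2 had 5.44, 4.46, 5.93, 4.92 and 10.67 on the cortex-like isoflurane arrays and 8.29, 8.76, 7.63 and 8.78 on the oxygen arrays. Isoflurane replicate 10 lay above every oxygen array, and the other 4 lay below every one and under the filter of 6.62, near background. The limma difference was -2.08 (interval -4.35 to 0.19, adjusted p = 0.175), and -3.18 (adjusted p = 9.97e-05) without isoflurane replicate 10. Car8 behaved alike on a smaller scale, with 8.60, 8.76, 8.62, 8.78 and 10.41 on the isoflurane arrays and 8.92, 9.14, 8.86 and 9.27 on the oxygen arrays. Its difference was -0.02 (adjusted p = 0.977), and -0.36 (adjusted p = 0.0441) without isoflurane replicate 10, a fit in which 33.6% of tested probe sets passed. The granule cell genes Gabra6, Cbln1 and En2 followed the same order of arrays. Fat2 did so by a hair, with 4.626 on isoflurane replicate 5 against 4.632 on oxygen replicate 3. On isoflurane replicates 2, 4, 5 and 6, Gabra6, En2 and Fat2 lay under the filter, near background. The part of the granule cell genes in these differences was not tested. Of the 11 granule cell markers, 2 had a positive fitted change on cortex-like arrays, Zic1 (0.57) and Etv1 (0.39), and the median was -0.45. Over all genes it was positive for 4499 of 10315, with a median of -0.05. Zic1, En2 and Fat2 had means under the filter in both groups on these arrays, so their changes lie near background.

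The remaining members did not pass on the cortex-like arrays. Rora by its brighter probe set had 9.78, 9.53, 9.14, 9.83 and 10.24 on the isoflurane arrays and 9.35, 8.95, 9.37 and 8.26 on the oxygen arrays, a difference of 0.72 (0.16 to 1.29, limma adjusted p = 0.0701). Its groups overlapped only through isoflurane replicate 5. Pcp4 differed by 0.34 (0.02 to 0.65, adjusted p = 0.119) and Itpr1 by -0.01 (-0.20 to 0.19, adjusted p = 0.967). Lhx1 was at 0.70 (-0.44 to 1.83, adjusted p = 0.358), but it too was tested through its level on cerebellum-like arrays: 0 of the 9 cortex-like arrays exceeded the filter, and their mean was 5.18. Below the filter, Lhx5 by 1386526_at had 5.24, 4.22, 5.68, 4.69 and 4.84 on the isoflurane arrays and 2.56, 4.86, 3.20 and 1.09 on the oxygen arrays (difference 2.01, adjusted p = 0.0792 in the fit without a filter), at levels near background.

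Whether the effect differed between the sets was tested with an interaction term over all 20 arrays, cerebellum-like minus cortex-like. None of the 9 members passed with limma, against 10.2% of all tested probe sets (2.58% with a more positive change on cerebellum-like arrays, 7.61% with a more negative one), and 1 member, Pcp2, had an unadjusted p under 0.05, against 27.5% of tested probe sets. For Lhx1 and the dimmer Plcb4 probe set the cortex-like side of this difference lies near background. The difference was 2.22 for Pcp2 (0.07 to 4.37, adjusted p = 0.170), -0.40 for the brighter Plcb4 probe set (-0.83 to 0.04, adjusted p = 0.222) and -0.62 for Foxp2 (-1.32 to 0.08, adjusted p = 0.239). The calls of Plcb4 and Foxp2 on cortex-like arrays are therefore not shown to be particular to them. Without isoflurane replicate 10 the difference was 3.31 for Pcp2 (adjusted p = 2.02e-06) and 0.51 for Car8 (adjusted p = 0.0294), with 23.1% of tested probe sets called. On the cortex-like side that Pcp2 value rests on isoflurane replicates 2, 4, 5 and 6, which lie near background for Pcp2. Without oxygen replicate 10, the lowest cerebellum-like array for Plcb4 and Foxp2, it was -0.55 for Plcb4 (adjusted p = 0.0138) and -0.83 for Foxp2 (adjusted p = 0.0386), with 11.9% called.

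Over all 20 arrays with the set as a block, limma again called none of the 9 members, against 7.37% of tested probe sets (2.58% higher, 4.79% lower), and 3 had an unadjusted p under 0.05, against 27.1% of tested probe sets. Those 3 were the brighter Plcb4 probe set (0.35, interval 0.11 to 0.58, adjusted p = 0.0587), Pcp4 (0.27, 0.05 to 0.48, adjusted p = 0.111) and the brighter Rora probe set (0.43, 0.07 to 0.79, adjusted p = 0.121). In this fit too, Lhx1 and the dimmer Plcb4 probe set lie near background on the cortex-like arrays. Without isoflurane replicate 9 all 3 of the brighter Plcb4, Pcp4 and brighter Rora probe sets passed, Plcb4 at 0.37 (adjusted p = 0.0357), Pcp4 at 0.33 (adjusted p = 0.0250) and Rora at 0.55 (adjusted p = 0.0186). In that fit 2938 of the 18625 probe sets (15.8%) passed, against 1372 with all arrays. Plcb4 also passed without oxygen replicate 5, 6 or 7, at 0.37 to 0.39, where 6.08%, 8.98% and 6.36% of tested probe sets did. Pcp2 stood at -0.86 (adjusted p = 0.336), and at -1.27 (adjusted p = 0.0487) without isoflurane replicate 10, where 10.3% passed. The cortex-like isoflurane arrays left in that fit lie near background for Pcp2.

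Other genes of the same pathway and cell type were taken from lists, with each gene at its brightest probe set. Of 19 tested genes around the metabotropic receptor and calcium stores, 0 passed on cerebellum-like arrays with limma, with a median change of -0.07, against -0.01 over all 10315 genes. The lowest unadjusted p-values were those of Pvalb, a calcium-binding protein (0.30, adjusted p = 0.352), Cacna1a, the pore of the P/Q calcium channel (-0.45, adjusted p = 0.360), and Dgkz, a diacylglycerol kinase (-0.21, adjusted p = 0.408). Of 18 further genes of Purkinje cells 0 passed (median 0.04). There Ldb1, the cofactor of Lhx1 and Lhx5, stood at -0.30 (adjusted p = 0.359), Foxp4, a forkhead factor, at -0.41 (adjusted p = 0.397) and Slc32a1, the vesicular GABA transporter, at -0.45 (adjusted p = 0.445). Of 8 targets and partners of ROR receptors 0 passed (median 0.04). The lowest p-values there belonged to Nr1d1, a receptor that competes for ROR sites (-0.76, adjusted p = 0.306), Calb1, a calcium buffer (0.15, adjusted p = 0.522), and Slc1a6, the Purkinje cell glutamate transporter (0.26, adjusted p = 0.539). Several genes stand in more than 1 list.

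On the cortex-like arrays 1 pathway gene rose and 2 fell, with a median of -0.24 over the 19, against 642 higher (6.22%) and 932 lower (9.04%) of 10315 genes with a median of -0.05. Gria3, an AMPA receptor subunit, rose by 0.80 (limma adjusted p = 0.0196), while Homer3, a scaffold of the metabotropic receptor, fell by 1.05 (adjusted p = 0.0216) and Dgkz by 0.47 (adjusted p = 0.0137). Of the 18 further Purkinje cell genes 4 rose and 2 fell, with a median of -0.11. The GABA-synthesising enzymes Gad1 (0.35, adjusted p = 0.0158) and Gad2 (1.10, adjusted p = 0.00827), which cortical interneurons also make, rose with Ebf1, a transcription factor (0.88, adjusted p = 0.0307), and Scn4b, a sodium channel subunit (0.44, adjusted p = 0.0167). Homer3 and Foxp4 (-1.05, adjusted p = 0.00732) fell. Among the 8 ROR genes, Rorb, a receptor of cortical layer neurons, rose by 1.67 (adjusted p = 0.00816) and Nr1d1 fell by 1.11 (adjusted p = 0.00602), with a median of -0.08. The effect differed between the sets for 2 of these genes, Gad2 (-1.12, adjusted p = 0.0199) and Rorb (-1.65, adjusted p = 0.0192), and for 0 of the 19 pathway genes. Rorb ran from 5.26 to 6.47 on cerebellum-like arrays, under the filter of 6.62, and was tested through its level on cortex-like arrays. The cerebellum-like side of its difference therefore lies near background. Of all 10315 genes 2.98% differed with a more positive change on cerebellum-like arrays and 4.12% with a more negative one. With the set as a block, Homer3 (-0.59, adjusted p = 0.0411), Dgkz (-0.33, adjusted p = 0.0206), Camk2b, a calmodulin kinase subunit (-0.21, adjusted p = 0.0488), Foxp4 (-0.69, adjusted p = 0.0128) and Nr1d1 (-0.92, adjusted p = 0.00204) fell, while 1.86% of all genes rose and 5.87% fell. Without the 4 isoflurane arrays that stand apart, 0 probe sets were called on cortex-like arrays or with the set as a block.

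Likeness to Pcp2 was measured as Pearson's r over the 11 cerebellum-like arrays after each group was centred, across 10314 genes. It is a description, since the arrays share their scaling and the 3 arrays of low ceiling. The 5 genes most like Pcp2 were Coa8 (r = 0.992), Ywhah (0.989), Zcchc17 (0.988), Atp1b1 (0.986) and Rpl18 (0.982), over 11 arrays. After quantile normalization their r with Pcp2 was -0.82, -0.53, -0.78, 0.84 and -0.54. Of the members Itpr1 ranked 47 (0.96), Pcp4 ranked 230 (0.91) and Car8 ranked 242 (0.90), and Lhx1 ranked 10011 (-0.82). Over the 8 arrays without the low ceiling, r was 0.69 for Itpr1, 0.27 for Pcp4, 0.60 for Car8 and 0.00 for Lhx1. Likeness to Pcp2 thus changed size or sign without the 3 arrays and under the other scaling.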

How the data were processed

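Total RNA from tissue labelled brain cortex of 20 rats was hybridised to Affymetrix arrays, per the labels' protocols. Sample titles gave the groups and replicate numbers. The authors deposited a linear intensity per probe set (MAS5 signal). The submitters' processing notes name MAS5 and Affymetrix Expression Console, and their versions are not given in the sources used here. Each array had been scaled to a mean of 500.1 to 500.2 after trimming 2% at each end. No detection calls were used.

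Before log2, 2079 values under 1 were set to 1, and nothing else was normalized. Of 31099 probe sets 57 controls were left out, and of the 31042 others 18625 with a mean above the 40th percentile (6.62) were tested. The platform annotation named 1 gene for 20826 probe sets, more than 1 for 436 and no gene for 9780. Where genes were counted, the brightest tested probe set stood for the gene. limma 3.58.1 in R 4.3.3 was used (lmFit, eBayes with trend, two-sided, Benjamini-Hochberg over all tested probe sets, threshold 0.05, 95% intervals), on each set alone, with an interaction term, or with the set as a block. The fits were tested on simulated data. Named were all members, list genes that passed a test and otherwise the 3 of lowest p in a list on cerebellum-like arrays, and the 5 genes most like Pcp2. Python 3.11.15, numpy 2.4.6, pandas 2.3.3 and matplotlib 3.10.9 did the rest.

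Members, lists and the sets of arrays were chosen with earlier results of these data known. Same-numbered arrays of 1 set had deviations correlated between -0.26 and 0.13, so replicate numbers were not taken to pair rats. Alternatives were quantile normalization, median centring, pseudocounts of 16 and 64, other filters, eBayes without trend or robust, array weights, replicate blocks, the 3'/5' ratio of control transcripts as a covariate, and each array left out. Leaving out the 3 arrays of low ceiling, or the 4 isoflurane arrays that stand apart, was chosen after seeing the data.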

Additional observations from a re-analysis of the deposited data

Results flagged for a closer look

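A single array stood far from its group in 4 of 48 groups of 4 to 6 arrays that were examined (12 probe sets in 4 groups), where chance flags about 1 in 20. Isoflurane replicate 10 was the highest of the 5 cortex-like isoflurane arrays for Pcp2 (10.67, a gap of 4.74 to the next) and for Car8 (10.41, a gap of 1.63). Gabra6 and Cbln1 stood highest among those arrays on the same one, and their part was not tested. Oxygen replicate 10 was the lowest of the 6 cerebellum-like oxygen arrays for the brighter Plcb4 probe set (10.80, a gap of 0.70). Isoflurane replicate 9, an array of low ceiling, was the lowest of the 5 cerebellum-like isoflurane arrays for the brighter Rora probe set (10.39, a gap of 0.88).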

How the results depend on the processing

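On cerebellum-like arrays the count of 0 became 1075 with array weights, 405 without the 3 arrays of low ceiling, and 0 to 1086 with 1 array left out, the 1086 without isoflurane replicate 9. On cortex-like arrays the count of 3469 (2087 higher, 1382 lower) became 5243 with median-centred arrays (1467 higher, 3776 lower), 6787 with array weights, 1111 with the 3'/5' ratio, 0 without the 4 isoflurane arrays (876 at an unadjusted p under 0.05) and 1606 to 6266 with 1 array left out. For the interaction, 1897 (480 higher, 1417 lower) became 3899 (2840 higher, 1059 lower) with median centring, 1037 with the 60th percentile filter, 5815 with array weights, 1129 with a fixed replicate block, 104 with the 3'/5' ratio, 13 without the 4 arrays and 1109 to 4303 with 1 left out. With the set as a block, 1372 became 810 with a random and 29 with a fixed replicate block, 2710 without the 3 arrays, 0 without the 4 arrays (3016 at an unadjusted p under 0.05) and 480 to 2938 with 1 left out. The causes were not tested.

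None of the 9 members was called on cerebellum-like arrays under any of these settings, though some signs changed. Pcp2 was at -0.049 after quantile normalization. Foxp2 was at -0.010 with a pseudocount of 64, -0.18 with array weights, -0.0033 with the fixed replicate block and -0.20 to 0.11 with 1 array left out. With that block the dimmer Plcb4 probe set was at -0.055, Rora at -0.027 and Lhx1 at 0.069, and with the 3'/5' ratio Rora was at -0.036 and Lhx1 at 0.027. The fixed block rests here on replicate numbers 7, 8 and 9, the only ones in both groups.

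On cortex-like arrays Itpr1 was at 0.044 after quantile normalization, 0.042 with the fixed replicate block, 0.054 with the 3'/5' ratio, 0.13 without the 4 arrays and -0.067 to 0.030 with 1 left out. The dimmer Plcb4 probe set was at -0.18 after quantile normalization, -0.041 after median centring and -0.16 to 0.47 with 1 left out. Car8 was at 6.9e-05 with the random replicate block, 0.46 with the 3'/5' ratio, 1.36 without the 4 arrays and -0.36 to 0.091 with 1 left out, and Pcp2 was at 2.31 without the 4 arrays. With the filter on the mean of the cortex-like arrays alone, Lhx1 and the dimmer Plcb4 probe set were not tested. Calls changed as well. Plcb4 (0.54, adjusted p = 0.0533) and Foxp2 (0.48, adjusted p = 0.140) were lost with the fixed replicate block, and Foxp2 (adjusted p = 0.0711) in 1 model of all 20 arrays. Rora was called in that model (adjusted p = 0.0366), with the 3'/5' ratio (1.03, adjusted p = 0.0412) and with the fixed replicate block (1.05, adjusted p = 0.00268). Pcp2 was called with array weights (-2.90, adjusted p = 0.00369) and with the fixed replicate block (-3.82, adjusted p = 3.7e-05). Only replicate numbers 2 and 4 occur in both groups on cortex-like arrays. The fixed-block differences there rest on those arrays alone, leave out isoflurane replicate 10 and decide nothing.

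For the interaction, Itpr1 was at -0.036 after quantile normalization, and Pcp4 at 0.12 after median centring and 0.015 with array weights. The dimmer Plcb4 probe set was at -0.0038 with array weights, -0.74 with the fixed replicate block, -0.96 with the 3'/5' ratio, -1.31 without the 4 arrays and -0.30 to 0.33 with 1 left out. Car8 was at -0.45 with the 3'/5' ratio and -1.21 without the 4 arrays, and Pcp2 at -2.17 without them. With the set as a block, Car8 was at -0.019 after quantile normalization and -0.065 to 0.13 with 1 left out, Lhx1 at -0.021 with a pseudocount of 64, -0.14 without the 4 arrays and -0.031 to 0.27 with 1 left out, and Pcp2 at 0.63 without them. Replicate numbers were not taken to pair these rats. In their set, 0 of 5 isoflurane arrays lay closest to the oxygen array of their own number. So few arrays cannot exclude a pairing. The block left the cerebellum-like count at 0, but only numbers 7, 8 and 9 occur in both groups there, so that count cannot decide it.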
